A study of Mus musculus with 18 samples.

Results

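The interferon regulatory factors are a family of transcription factors, and 8 of their genes (Irf1, Irf2, Irf3, Irf4, Irf5, Irf7, Irf8 and Irf9) were followed in renal tubular epithelial cells stimulated with TWEAK. The 8 members were taken by their Entrez Gene identifiers from the 36528 genes counted in every sample. The filter on low counts was passed by 7 of them, among 15521 genes tested, and not by Irf4. A further mammalian gene of the family was not among the members and was not analysed here. Irf5, Irf1 and Irf2 were higher after TWEAK at both time points, and Irf8 was lower. NIK SMI1, an inhibitor of the kinase NIK, lowered Irf1 at both times, lowered Irf5 (at 6 h by a call that depended on single samples) and raised Irf8 at 24 h, while no change of Irf2 with the inhibitor passed the test.

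Gene expression was measured by RNASeq in cultures of primary RPTEC (renal proximal tubulo-interstitial epithelial cells) of C57BL/6 mice, bought from a commercial supplier. The 6 groups of 3 samples were vehicle (DMSO), TWEAK at 100 ng/mL, and TWEAK at 100 ng/mL together with 3 μM NIK SMI1, each collected at 6 h and at 24 h. No group received NIK SMI1 alone, and the labels name neither batches nor replicate numbers, so the sample numbers 1 to 3 used below are names and pair nothing. Nothing in the labels says that the 3 samples of a group came from separate animals, and p-values measure only the spread between these samples. Each sample's counts summed to between 18040966 and 51956444, and levels are given in CPM, the counts scaled to 1000000 per sample, so that 3 reads equal 0.0577 to 0.166 CPM.

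TWEAK is a cytokine of the TNF family whose receptor, Fn14, activates both the canonical and the non-canonical arm of NF-κB signaling, and NIK is the kinase that starts the non-canonical arm. Interferon regulatory factors share a DNA-binding domain that reads GAAA repeats, the core of the interferon-stimulated response element (ISRE). IRF3 and IRF7 are phosphorylated after viral nucleic acid is sensed and switch on type I interferon genes, IRF9 belongs to ISGF3, the complex that carries the type I interferon signal to the nucleus, and IRF1 is a classical gene of interferon-γ and NF-κB responses. IRF4, IRF5 and IRF8 are best known from lymphoid and myeloid cells, and IRF5 is a genetic risk locus for lupus, the disease with which the study was concerned.

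The cells carried markers of tubular epithelium, and each of the 10 genes on that marker list was counted in every sample (for Pax8, a transcription factor of renal epithelium, the median was 39.8 CPM). Of 10 markers of the differentiated proximal tubule 4 passed the filter: Slc5a2 (119 to 402 reads in a sample), Cubn (53 to 186), Ggt1 (10 to 95) and Lrp2 (2 to 15). Slc34a1, Slc22a6 and Slc13a1 had at most 1 read in any sample, Hnf4a at most 2, and Miox none. Of 18 leukocyte markers 3 passed the filter: Cd68 (236 to 647 reads in a sample), Csf1r (101 to 583) and Spi1 (0 to 27). Ptprc, the pan-leukocyte marker, had at most 11 reads in a sample, and Cd3e and Tyrobp had none. Of 6 fibroblast markers 2 passed, Col1a1 (197 to 693 reads) and Pdgfra (3 to 33). In bulk samples such as these, fewer cells of a type and less RNA per cell cannot be told apart. Reads of pancreatic islet hormone genes (Ins1, Ins2 and Gcg together) were counted in 14 of the 18 samples (107 to 589 reads) and in none of 4, which were sample 2 of TWEAK at 24 h and all 3 samples of TWEAK with NIK SMI1 at 24 h. Sample 3 of TWEAK at 24 h had the fewest of the 14. The summed level of 10 islet markers was 5.62 CPM in that sample and 18.5 CPM in sample 1 of TWEAK at 24 h. In the vehicle samples at 24 h it was 19.0 to 25.4 CPM. All vehicle samples at 24 h held islet reads (167 to 491). For the members, values of TWEAK against vehicle at 24 h are therefore given below also without sample 2 of TWEAK. Every sample then holds islet reads, though at a lower level in sample 3 of TWEAK. For the members, values of NIK SMI1 against TWEAK at 24 h are given also without samples 1 and 3 of TWEAK, so that no sample holds islet reads. This leaves 1 TWEAK sample that is assumed to vary like the other groups. For both agents against vehicle at 24 h no such choice of samples exists, and islet reads and treatment cannot be told apart. The 24 h values of genes other than the members, and the counts over lists of genes, use all samples. They were not checked in this way.

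Promoter sequences are shown for the 4 members that passed the test with TWEAK at both time points. Irf2 was taken in place of Irf7, whose window held no match, after the matches were seen. The windows run from 250 bases before to 50 bases after the start of a RefSeq transcript (GRCm38.p6, all on the plus strand). The Irf1 window is chr11:53769764-53770063, the Irf2 window chr8:46739495-46739794, the Irf5 window chr6:29526375-29526674 and the Irf8 window chr8:120736108-120736407. Capitals mark matches to 3 motifs searched on both strands: the κB consensus of NF-κB, the ISRE core GAAANNGAAA, and the GAS core TTCNNNGAA, to which STAT dimers bind.
Irf1: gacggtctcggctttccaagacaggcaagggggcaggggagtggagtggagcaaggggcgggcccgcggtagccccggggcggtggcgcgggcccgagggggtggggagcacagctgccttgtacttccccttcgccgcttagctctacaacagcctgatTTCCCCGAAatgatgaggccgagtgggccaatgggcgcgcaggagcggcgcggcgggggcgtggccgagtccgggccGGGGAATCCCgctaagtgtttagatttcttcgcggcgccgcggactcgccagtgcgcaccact
Irf2: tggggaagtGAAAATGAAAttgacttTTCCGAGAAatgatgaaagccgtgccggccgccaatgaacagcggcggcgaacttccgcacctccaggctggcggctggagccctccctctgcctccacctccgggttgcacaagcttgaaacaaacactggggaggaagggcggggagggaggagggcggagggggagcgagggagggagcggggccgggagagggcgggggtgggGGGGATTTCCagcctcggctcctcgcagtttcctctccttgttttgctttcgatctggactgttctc
Irf5: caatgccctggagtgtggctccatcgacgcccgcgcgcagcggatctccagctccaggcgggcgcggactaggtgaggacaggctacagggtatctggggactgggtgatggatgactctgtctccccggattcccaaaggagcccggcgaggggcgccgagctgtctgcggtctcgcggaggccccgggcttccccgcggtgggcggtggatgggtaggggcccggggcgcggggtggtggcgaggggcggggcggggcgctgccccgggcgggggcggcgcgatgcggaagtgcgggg
Irf8: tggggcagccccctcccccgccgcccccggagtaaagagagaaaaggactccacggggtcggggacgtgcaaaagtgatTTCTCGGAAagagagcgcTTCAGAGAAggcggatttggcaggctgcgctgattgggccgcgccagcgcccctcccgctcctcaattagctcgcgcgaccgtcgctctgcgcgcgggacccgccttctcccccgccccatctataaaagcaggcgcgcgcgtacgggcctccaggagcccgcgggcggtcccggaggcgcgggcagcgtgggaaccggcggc
The Irf1 window held a κB match at bases -13 to -4 from the transcript start and a GAS match at -90 to -82. The Irf2 window held a κB match at -17 to -8, an ISRE match at -241 to -232 and a GAS match at -224 to -216, none of which overlapped another. The Irf8 window held 2 GAS matches, at -171 to -163 and at -153 to -145, and the Irf5 window held no match. Of 32851 promoter windows of the same length, 4.51% held the κB consensus, 3.44% the ISRE core and 8.30% the GAS core. No match was found in the windows of Irf3, Irf4, Irf7 and Irf9. These are matches of letters in short windows and do not show binding.

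**Figure D1:**
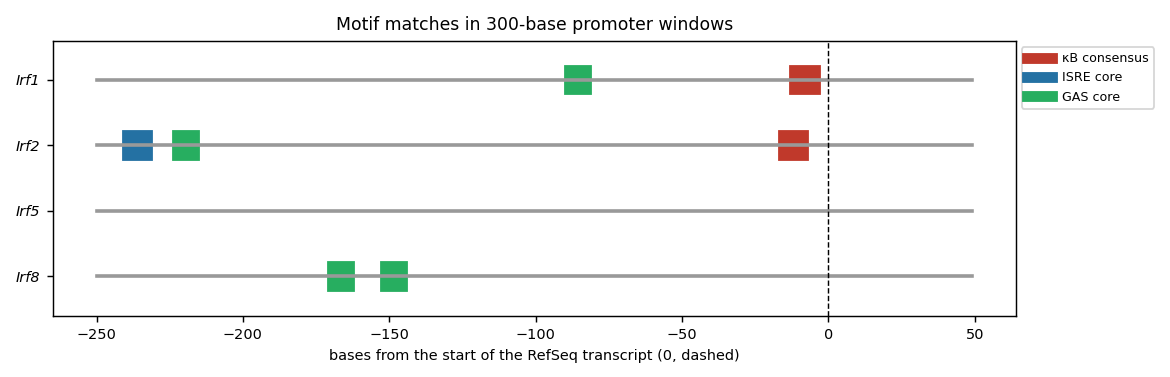
Matches to the κB consensus (red), the ISRE core (blue) and the GAS core (green) in the 300-base RefSeq promoter windows of Irf1, Irf2, Irf5 and Irf8, drawn to scale against the distance in bases from the transcript start (dashed line). Irf1 and Irf2 each have a κB match within 20 bases of the start, Irf8 has 2 GAS matches, and Irf5 has none.

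Compared per length, the family fell into an abundant and a scarce tier. By the deposited RPKM values (reads scaled to exon length and to sequencing depth), the median over the 18 samples was 25.4 for Irf3 (range 23.5 to 30.6), 19.9 for Irf1 (13.6 to 29.3), 7.63 for Irf2 (6.46 to 9.12) and 4.58 for Irf9 (3.76 to 5.43). The ranges of Irf3 and Irf1 overlapped, and their order depended on the group, since mean RPKM was 24.4 for Irf3 and 19.9 for Irf1 with vehicle at 24 h but 24.0 for Irf3 and 28.6 for Irf1 with TWEAK at 24 h. The lower tier was made up of Irf7 (median 0.633, 0.327 to 1.26), Irf5 (0.345, 0.107 to 1.19) and Irf8 (0.257, 0.120 to 0.640), whose ranges overlapped one another. Irf4, a factor of activated lymphocytes and plasma cells, had no read in 6 samples and at most 7 reads in any sample (at most 0.220 CPM), and was not tested.

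**Figure D2:**
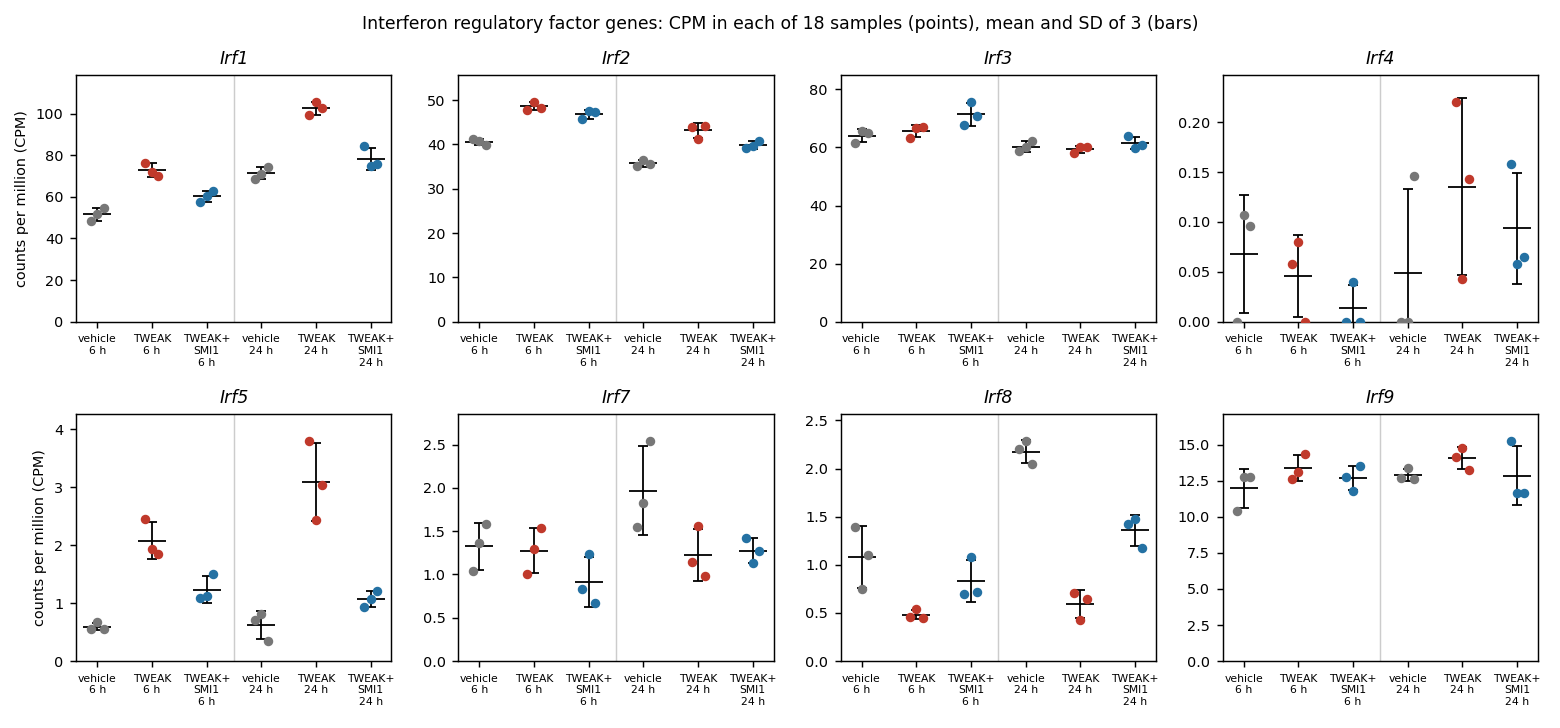
Level in CPM of each of the 8 genes in the 18 samples, with linear axes that start at 0. Points are single samples (grey vehicle, red TWEAK, blue TWEAK with NIK SMI1; 6 h left and 24 h right of the grey line), and bars give the mean and SD of 3 samples. All TWEAK samples of Irf1, Irf2 and Irf5 lie above the vehicle samples of the same time and all TWEAK samples of Irf8 lie below them, while Irf3 and Irf9 samples overlap and Irf4 stays at or below 0.220 CPM.

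To ask which members TWEAK changed, the 6 groups were fitted together in edgeR and compared by its quasi-likelihood test, with p-values adjusted over all tested genes. At 6 h 4 of the 7 tested members passed (adjusted p below 0.05), Irf1, Irf2 and Irf5 upward and Irf8 downward, and 23.7% of all tested genes passed. At 24 h 5 of 7 passed, with Irf7 downward as the addition, and 39.0% of all tested genes passed. The median log2 fold change over the tested members was 0.16 at 6 h and 0.13 at 24 h, beside -0.003 and -0.006 over all tested genes. Comparisons of TWEAK with vehicle and of TWEAK with NIK SMI1 against TWEAK share the TWEAK samples, and their values are set side by side without reading one as support for the other.

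Irf5, which acts downstream of Toll-like receptors through MyD88, was scarce and rose with TWEAK at both times. With vehicle it was counted at 0.551, 0.668 and 0.558 CPM at 6 h (17, 25 and 29 reads) and at 0.702, 0.812 and 0.342 CPM at 24 h (30, 16 and 7 reads). With TWEAK it reached 2.44, 1.93 and 1.85 CPM at 6 h (85, 97 and 70 reads) and 3.79, 2.44 and 3.04 CPM at 24 h (86, 114 and 127 reads). Every TWEAK sample lay above every vehicle sample of its time point. Irf5 thus rose 3.5-fold at 6 h, a log2 fold change of 1.81 ± 0.23 (SE, adjusted p = 7.4e-07). At 24 h it rose 4.74-fold, a log2 fold change of 2.25 ± 0.25 (adjusted p = 2.18e-08), and without sample 2 of TWEAK it was 2.41 ± 0.25 (adjusted p = 2.52e-08).

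With NIK SMI1 added, Irf5 stood at 1.085, 1.118 and 1.497 CPM at 6 h and at 0.925, 1.07 and 1.20 CPM at 24 h, between the vehicle and the TWEAK samples at both times and overlapping neither. Against TWEAK alone the log2 fold change was -1.52 ± 0.21 at 24 h (adjusted p = 4.1e-06), and without samples 1 and 3 of TWEAK it was -1.20 ± 0.27 (adjusted p = 0.00407). At 6 h it was -0.78 ± 0.23 (adjusted p = 0.0229). This 6 h call was lost when sample 1 of TWEAK (-0.66, adjusted p = 0.115), sample 1 of TWEAK with NIK SMI1 (-0.69, adjusted p = 0.123) or sample 2 of TWEAK with NIK SMI1 (-0.73, adjusted p = 0.0972) was left out. Compared with vehicle, Irf5 with both agents was still higher at 6 h, by 1.03 ± 0.27 on the log2 scale (adjusted p = 0.0104), and the value at 24 h was 0.73 ± 0.28 (adjusted p = 0.0748). The NIK SMI1 effect at 24 h differed from that at 6 h by -0.74 ± 0.31 on the log2 scale, which did not pass the test of the difference (unadjusted p = 0.0272, adjusted p = 0.194).

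Of the 7 tested members, Irf5 alone rose more than 2-fold with TWEAK and fell more than 1.5-fold with NIK SMI1, and it did both at both times. The first limit was passed by 1.75% of all tested genes at 6 h and by 2.34% at 24 h, and the second by 1.10% and 1.75%. The share of genes that passed both limits was not counted. At 6 h the fall with NIK SMI1 rests on the call that depended on single samples. In the GENCODE annotation (GRCm38) Irf5 spans chr6:29526625-29541871 and shares 411 bases, 14.1% of its exon length, with exons of Tnpo3 on the opposite strand. The library kit does not keep strand, and reads of these bases cannot be assigned. Tnpo3, a nuclear import receptor, was counted at 162.5 ± 2.00 CPM (SD, n = 3) with vehicle and 162.5 ± 1.69 CPM with TWEAK at 6 h, and at 161 ± 4.17 and 169 ± 6.45 CPM at 24 h. None of its TWEAK or NIK SMI1 comparisons passed the test, with log2 fold changes between -0.05 and 0.07. For the other 7 members, exons of a neighbouring gene covered at most 3.4% of the exon bases.

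Irf1, by RPKM far more abundant than Irf5, rose by less. Its vehicle samples were at 48.3, 51.6 and 54.8 CPM at 6 h and its TWEAK samples at 76.5, 72.0 and 70.2 CPM. At 24 h the vehicle samples were at 68.8, 70.8 and 74.5 CPM and the TWEAK samples at 99.2, 106 and 103 CPM. The groups did not overlap at either time. Irf1 rose 1.42-fold at 6 h, by 0.51 ± 0.05 on the log2 scale (adjusted p = 2.65e-09), and 1.44-fold at 24 h, by 0.53 ± 0.05 (adjusted p = 6.63e-10). Without sample 2 of TWEAK at 24 h the rise was 0.51 ± 0.05 (adjusted p = 2.55e-08). The difference between the times was 0.02 ± 0.07, with an approximate 95% interval (estimate ± 1.96 SE) from -0.11 to 0.15.

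NIK SMI1 moved Irf1 part of the way back. The samples with both agents were at 57.8, 60.2 and 63.0 CPM at 6 h and at 84.4, 75.0 and 75.7 CPM at 24 h, below the TWEAK samples and above the vehicle samples at both times. Against TWEAK alone Irf1 fell by 0.28 ± 0.05 on the log2 scale at 6 h (adjusted p = 0.00017) and by 0.39 ± 0.05 at 24 h (adjusted p = 3.21e-07), or by 0.43 ± 0.07 without samples 1 and 3 of TWEAK (adjusted p = 7.03e-05). It was still higher than with vehicle at 6 h (0.22 ± 0.05, adjusted p = 0.00243), whereas the value at 24 h lay at the edge of the test (0.14 ± 0.05, adjusted p = 0.0507). That value passed under 8 of 25 other settings, with adjusted p between 0.0248 and 0.314 over the 25. Of these 8, 6 left out 1 sample: sample 1 or 3 of vehicle or sample 3 of TWEAK with NIK SMI1 at 6 h, or sample 3 of vehicle or sample 2 or 3 of TWEAK with NIK SMI1 at 24 h (log2 fold change 0.14 to 0.17, adjusted p 0.0326 to 0.0462). The other two were no filter (0.14, adjusted p = 0.0248) and the fit of 24 h alone (0.14, adjusted p = 0.0256).

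Irf2 binds the same elements as Irf1 and was first described as its antagonist. Its samples with vehicle were at 41.1, 40.7 and 39.9 CPM at 6 h and at 35.0, 36.6 and 35.6 CPM at 24 h, and with TWEAK at 47.9, 49.6 and 48.3 CPM and at 44.01, 41.2 and 44.2 CPM. The rise was small but larger than the spread between samples, with log2 fold changes of 0.27 ± 0.04 at 6 h (adjusted p = 8.92e-06) and 0.27 ± 0.05 at 24 h (adjusted p = 1.66e-05). No TWEAK sample overlapped the vehicle samples of its time, and without sample 2 of TWEAK the 24 h value was 0.31 ± 0.05 (adjusted p = 1.01e-05). With NIK SMI1 the samples were at 45.7, 47.5 and 47.3 CPM at 6 h and at 39.3, 39.6 and 40.9 CPM at 24 h. They lay below the TWEAK samples at both times, but the change of -0.06 ± 0.04 at 6 h (adjusted p = 0.421, interval -0.15 to 0.02) did not pass the test, nor did that of -0.12 ± 0.04 at 24 h (adjusted p = 0.0616, interval -0.20 to -0.03). The 24 h value passed without sample 2 of TWEAK at 24 h (-0.15, adjusted p = 0.0239), a choice that leaves only TWEAK samples with islet reads. Without samples 1 and 3 of TWEAK, so that neither group held islet reads, it was -0.04. Irf2 with both agents was higher than with vehicle at 6 h (0.21 ± 0.04, adjusted p = 0.00103) and at 24 h (0.16 ± 0.04, adjusted p = 0.0134). The 24 h call was lost without sample 1 of vehicle (0.14, adjusted p = 0.0811) or sample 3 of TWEAK with NIK SMI1 (0.14, adjusted p = 0.0616) at that time.

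Irf8, a factor of myeloid and B cell development, moved in the direction opposite to Irf1, Irf2 and Irf5. With vehicle it was counted at 1.39, 0.748 and 1.10 CPM at 6 h (43, 28 and 57 reads) and at 2.20, 2.28 and 2.05 CPM at 24 h (94, 45 and 42 reads). With TWEAK the samples were at 0.460, 0.537 and 0.449 CPM at 6 h (16, 27 and 17 reads) and at 0.705, 0.428 and 0.645 CPM at 24 h (16, 20 and 27 reads). Every TWEAK sample was below every vehicle sample of its time. At 6 h the log2 fold change was -1.120 ± 0.26, or 2.17-fold lower (adjusted p = 0.00204). At 24 h it was -1.92 ± 0.25, or 3.79-fold lower (adjusted p = 5.26e-07), and -1.70 ± 0.28 without sample 2 of TWEAK (adjusted p = 2.51e-05). All 6 h samples held islet reads.

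NIK SMI1 raised Irf8 at 24 h, to 1.42, 1.48 and 1.17 CPM, above the TWEAK samples and below the vehicle samples. The log2 fold change against TWEAK was 1.24 ± 0.26 (2.37-fold, adjusted p = 0.000775), and 1.67 ± 0.37 without samples 1 and 3 of TWEAK (adjusted p = 0.00393). At 6 h the samples with both agents were at 0.696, 1.08 and 0.721 CPM, again above the TWEAK samples, but the change of 0.76 ± 0.30 did not pass after adjustment (adjusted p = 0.109). Irf8 with both agents stayed below vehicle at 24 h (-0.68 ± 0.22, adjusted p = 0.0308), in a comparison in which every vehicle sample and no sample with both agents held islet reads. That call was lost when sample 1, 2 or 3 of vehicle, or sample 1 or 3 of TWEAK with NIK SMI1, at 24 h was left out (log2 fold change -0.72 to -0.59, adjusted p 0.0502 to 0.114). The TWEAK effect on Irf8 differed between 24 h and 6 h by -0.80 ± 0.37, which did not pass after adjustment (unadjusted p = 0.0421, adjusted p = 0.217). Of the leukocyte markers that could be tested beside Irf8, Spi1, the partner of IRF8 on DNA, fell with TWEAK at 24 h (0.673 CPM with vehicle, 0.263 CPM with TWEAK, log2 fold change -1.34 ± 0.46, adjusted p = 0.0207). Csf1r, a macrophage receptor, rose from 8.10 to 11.9 CPM, and Cd68 did not pass. The summed level of the 18 leukocyte markers ranged from 22.1 to 23.3 CPM with vehicle and from 24.9 to 26.6 CPM with TWEAK at 24 h. Most of this sum was Csf1r and Cd68 (means of 13.4 CPM with vehicle and 12.9 CPM with TWEAK for Cd68). The sum therefore says little about the other markers. The part of other cell types in the Irf8 result was not tested.

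Irf7, the interferon-inducible amplifier of the type I interferon response, was near 1 CPM in these cells. At 24 h it was counted at 1.54, 1.83 and 2.54 CPM with vehicle (66, 36 and 52 reads) and at 1.15, 1.56 and 0.980 CPM with TWEAK (26, 73 and 41 reads), and the groups overlapped. The log2 fold change of -0.62 ± 0.24 just passed (adjusted p = 0.0479). It was -0.86 ± 0.28 without sample 2 of TWEAK (adjusted p = 0.0193), -0.30 ± 0.31 without samples 1 and 3 of TWEAK (adjusted p = 0.538), and -0.41 and -0.45 without sample 3 of vehicle or sample 3 of TWEAK at 24 h (adjusted p = 0.25 and 0.207). The call was also lost, with adjusted p between 0.0501 and 0.0971, without sample 2 of vehicle, sample 1 of TWEAK or any 1 of the 3 samples of TWEAK with NIK SMI1 at 24 h, or without sample 2 of vehicle, sample 2 of TWEAK or sample 1 of TWEAK with NIK SMI1 at 6 h, and with scaling by library size alone (adjusted p = 0.0501). No other comparison of Irf7 passed. At 6 h its samples were at 1.04, 1.36 and 1.58 CPM with vehicle, at 1.01, 1.29 and 1.53 CPM with TWEAK, and at 0.835, 1.24 and 0.665 CPM with both agents, all overlapping. With both agents at 24 h they were at 1.42, 1.13 and 1.27 CPM, within the range of the TWEAK samples.

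No change of Irf3 or Irf9 with TWEAK passed the test. Irf3, the constitutive factor that TBK1 phosphorylates, was at 61.4 to 65.8 CPM with vehicle and 63.2 to 66.9 CPM with TWEAK at 6 h, and at 58.7 to 62.3 CPM and 58.0 to 60.2 CPM at 24 h, with overlapping groups. The intervals of its log2 fold changes, -0.04 to 0.13 at 6 h and -0.10 to 0.07 at 24 h, end below those of Irf1, 0.41 to 0.60 and 0.43 to 0.62. Irf9, the DNA-binding subunit of ISGF3, was at 10.4 to 12.8 CPM with vehicle and 12.6 to 14.4 CPM with TWEAK at 6 h, and at 12.6 to 13.4 CPM and 13.3 to 14.8 CPM at 24 h (log2 fold changes 0.16 ± 0.09 and 0.13 ± 0.09, intervals -0.01 to 0.34 and -0.06 to 0.31). Irf3 with both agents was at 67.7 to 75.7 CPM at 6 h, higher than with vehicle (0.16 ± 0.04, adjusted p = 0.0122). This call was lost without sample 1 of vehicle (0.14, adjusted p = 0.0534) or sample 2 of TWEAK with NIK SMI1 (0.11, adjusted p = 0.126) at 6 h. Against TWEAK alone NIK SMI1 moved Irf3 by 0.11 ± 0.04 at 6 h (adjusted p = 0.0967), a value that passed without sample 1 of TWEAK with NIK SMI1 at 6 h (0.15, adjusted p = 0.0425). For Irf9 at 24 h it was -0.12 ± 0.09 (adjusted p = 0.416), and -0.27 without sample 1 of TWEAK with NIK SMI1 at 24 h (adjusted p = 0.036). Without samples 1 and 3 of TWEAK the Irf9 value was -0.19. With TWEAK against vehicle at 24 h and without sample 2 of TWEAK, the value was -0.02 for Irf3 and 0.09 for Irf9 (adjusted p = 0.786 and 0.584).

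**Figure D3:**
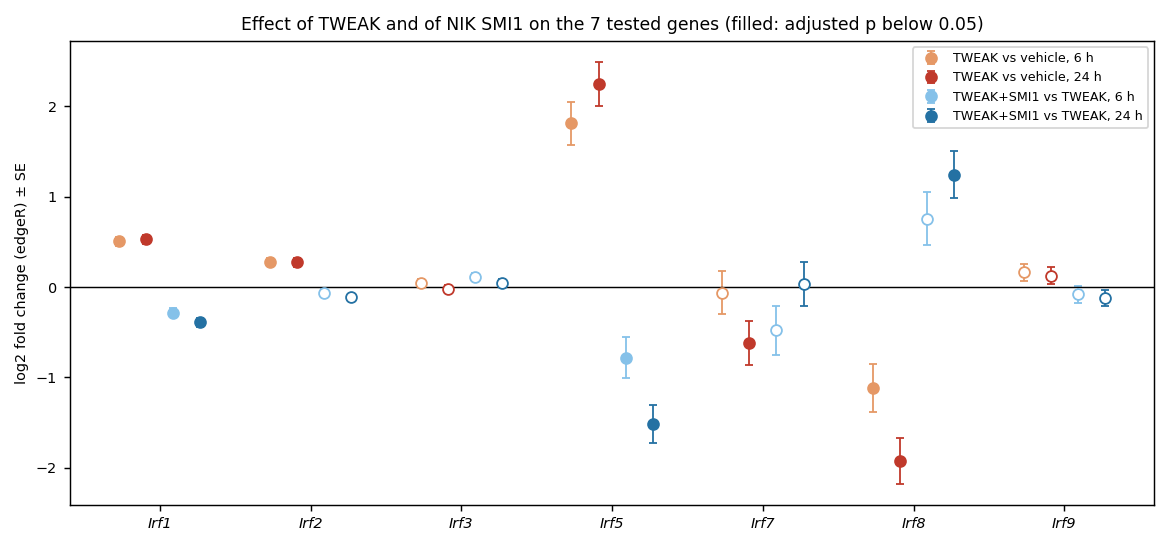
Log2 fold changes from edgeR with standard errors for the 7 tested genes, for TWEAK against vehicle (orange 6 h, red 24 h) and for TWEAK with NIK SMI1 against TWEAK (light blue 6 h, dark blue 24 h). Filled points passed at an adjusted p below 0.05. Among them, Irf5 (1.81 and 2.25), Irf1 (0.51 and 0.53) and Irf2 (0.27 and 0.27) are above 0 with TWEAK, and Irf8 (-1.120 and -1.92) is below 0 at both times.

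The remaining comparisons place these counts beside their background. For TWEAK with NIK SMI1 against TWEAK, 2 of the 7 tested members passed at 6 h (Irf1 and Irf5, with 11.0% of all tested genes) and 3 at 24 h (Irf1, Irf5 and Irf8, with 18.5%). For both agents against vehicle, 4 passed at 6 h (Irf1, Irf2, Irf3 and Irf5, with 13.9%) and 2 at 24 h (Irf2 and Irf8, with 17.9%). The difference between the effect at 24 h and at 6 h passed for 0 of 7 members for TWEAK (8.91% of all tested genes) and 0 of 7 for NIK SMI1 (4.74%) in edgeR's quasi-likelihood test. At an unadjusted p below 0.05 it was 1 member each (Irf8 and Irf5), and DESeq2 called 0 in both, with 0 and 1 at an unadjusted p below 0.05.

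Time in culture was compared in the vehicle samples. From 6 h to 24 h with vehicle, 4 of 7 members passed, where 29.9% of all tested genes passed. Irf1 rose (0.40 ± 0.05, adjusted p = 4.43e-07) and so did Irf8 (0.96 ± 0.22, adjusted p = 0.00167), whereas Irf2 fell by 0.25 ± 0.04 (adjusted p = 7.77e-05) and Irf3 by 0.16 ± 0.04 (adjusted p = 0.00758). The vehicle samples of Irf3 overlapped between the times, and its call was lost without sample 1 of vehicle at 24 h (-0.13, adjusted p = 0.0575) and with scaling by library size alone (-0.09, adjusted p = 0.129). Among the 6 group means, the highest for Irf1 was 102.6 CPM with TWEAK at 24 h, and the highest for Irf8 was 2.18 CPM with vehicle at 24 h.

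For the members called with TWEAK at both times, the genes whose log2 CPM followed it most closely over the 18 samples are given as a description, since these samples share their treatments. Irf1 was most like Xdh, xanthine dehydrogenase (Pearson r = 0.951), Fam163a (0.951) and Psmb10, an immunoproteasome subunit (0.950). With TWEAK, mean Psmb10 was 30.5 CPM at 6 h (vehicle 20.6) and 39.5 CPM at 24 h (vehicle 25.3). Irf2 was most like Ccn1, a secreted matrix protein (0.981), Plscr1, an interferon-inducible phospholipid scramblase (0.980), and F11r, a tight junction protein (0.976). Irf5 was most like Pik3r5 (0.967), a regulatory subunit of phosphoinositide 3-kinase, Zbtb46 (0.951), a transcription factor of dendritic cells, and Fbxo32 (0.943), a ubiquitin ligase subunit. Irf8 was most like Them6 (0.947), Peg3 (0.946) and Iqsec1 (0.946).

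The pathway around the family was read from lists of its ligands, receptors, relay, sensors and target genes. Of 10 interferon ligand genes none was tested, 6 had no read in any sample (Ifna1, Ifna2, Ifna5, Ifng, Ifnl2 and Ifnl3), and their summed level was at most 0.0795 CPM in a sample. The receptors were expressed. All 6 tested receptor subunits rose with TWEAK at 6 h and 5 at 24 h, Ifnlr1, the interferon-λ receptor, being the exception (-0.04 ± 0.07). Of all tested genes, 11.7% rose at 6 h and 18.3% at 24 h. Ifngr2, the signaling subunit of the interferon-γ receptor, had the largest change, from 49.5 to 98.4 CPM at 6 h and from 45.4 to 89.1 CPM at 24 h (1.01 ± 0.05 and 0.97 ± 0.05 on the log2 scale, adjusted p = 2.52e-15 and 7.27e-15). Ifnar1, Ifnar2 and Il10rb rose by between 0.21 and 0.39 at either time. NIK SMI1 lowered 3 of 6 at each time (Ifngr1, Ifngr2 and Il10rb at 6 h, and Ifnar1, Ifnar2 and Ifngr2 at 24 h). Of all tested genes it lowered 5.70% at 6 h and 8.29% at 24 h. In the JAK-STAT relay, Tyk2 rose with TWEAK at both times and Jak1 at 24 h. Tyk2, a kinase bound to the type I interferon receptor, went from 36.2 CPM with vehicle to 57.2 CPM with TWEAK at 6 h (0.67 ± 0.05). It fell with NIK SMI1 by 0.18 ± 0.04 at 6 h and by 0.41 ± 0.04 at 24 h. Jak2 and Stat3, the most abundant genes of this list that were not called with TWEAK, stood at 182 and 100 CPM with TWEAK at 6 h.

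Among 17 tested sensors, adaptors and kinases that act upstream of the family, 7 rose and 2 fell with TWEAK at 6 h. At 24 h 7 rose and 5 fell. Those that fell were Tlr3 and Tlr4 at both times, and Ticam1, Irak4 and Mavs at 24 h. Of all tested genes, 11.7% rose and 12.0% fell at 6 h, and 18.3% rose and 20.7% fell at 24 h. Tlr3, the endosomal receptor of double-stranded RNA, fell from 85.2 to 53.6 CPM at 6 h (-0.66 ± 0.04, adjusted p = 9.56e-13) and from 134 to 51.0 CPM at 24 h (-1.39 ± 0.04, adjusted p = 8.24e-20), and rose with NIK SMI1 at both times (0.31 ± 0.04 and 0.54 ± 0.04). Tlr4, the receptor of lipopolysaccharide, fell from 8.42 to 4.22 CPM at 24 h (-0.99 ± 0.12). In the other direction, Ddx58, which encodes the RNA sensor RIG-I, rose from 29.9 to 59.5 CPM at 6 h (1.002 ± 0.06) and Tank, an adaptor of the kinase TBK1, from 36.3 to 71.2 CPM at 24 h (0.96 ± 0.06). Tbk1 itself (0.05 ± 0.05 at 6 h and 0.01 ± 0.05 at 24 h) and Myd88 did not pass. NIK SMI1 lowered 5 of the 17 at 6 h (Traf6, Ddx58, Sting1, Ikbke and Tank). At 24 h it lowered 5 (Traf3 in place of Ddx58), and besides Tlr3 raised Mavs. Of all tested genes it lowered 5.70% and raised 5.34% at 6 h, and lowered 8.29% and raised 10.2% at 24 h. Of 10 tested partners and regulators of the family 1 rose and 2 fell at 6 h and 3 fell at 24 h, or 3 of 10 at each time beside 23.7% and 39.0% of all tested genes, so the count sets the list apart at neither time. These were Batf3 upward and Irf2bp2 and Irf2bpl downward at 6 h, and Spi1, Irf2bp2 and Trim21 downward at 24 h. Irf2bp2, a corepressor that binds IRF2, fell from 100 to 78.3 CPM at 6 h (-0.34 ± 0.04, adjusted p = 5.52e-07), while Ep300 and Irf2bp1 did not pass.

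Target genes were read in 2 lists. Of 22 tested genes known as targets of IRF1, many of them shared with NF-κB, 11 rose and 1 fell with TWEAK at 6 h, and 12 rose and 1 fell at 24 h, with a median log2 fold change of 0.37 and 0.34 (-0.003 and -0.006 over all tested genes). Of all tested genes, 11.7% rose and 12.0% fell with TWEAK at 6 h, and 18.3% rose and 20.7% fell at 24 h. NIK SMI1 lowered 10 of the 22 at 6 h, and lowered 9 and raised 1, Casp8, at 24 h. Of all tested genes it lowered 5.70% at 6 h, and lowered 8.29% and raised 10.2% at 24 h. The largest rises were those of the adhesion molecule Vcam1, the chemokines Cxcl10 and Ccl5, and Socs1, a brake on cytokine receptors, and several of these genes had been singled out by the study in the same samples, so that the count is not independent evidence of a direction. Mean Ccl5 with vehicle was 0.229 CPM at 6 h and 0.151 CPM at 24 h, so its rise rests on few reads, which limits its precision. The other genes that rose at both times were Psmb10, Psme1 and Psme2 of the proteasome, and Tap2, Tapbp and B2m, which serve antigen loading. Tapbp went from 126 to 214 CPM at 24 h (0.76 ± 0.04, adjusted p = 1.08e-15). Cd274 did not pass, and Ptgs2, cyclooxygenase-2, fell at both times (-0.36 ± 0.07 and -0.70 ± 0.07).

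Of 19 tested targets of ISGF3, the antiviral genes of the type I interferon response, 5 rose and 4 fell with TWEAK at 6 h, and 5 rose and 5 fell at 24 h, with a median log2 fold change of 0.13 and -0.13. The same 5 genes rose at both times: Parp14 (1.38 ± 0.06 at 6 h and 1.33 ± 0.06 at 24 h), Rsad2 (1.25 ± 0.28 and 0.95 ± 0.24), Parp9, its partner Dtx3l, and Bst2, the virus-tethering protein tetherin. Ifit2, Ifit3, Trim25 and Samd9l fell at both times and Ifi44 at 24 h. Of all tested genes, 11.7% rose and 12.0% fell with TWEAK at 6 h, and 18.3% rose and 20.7% fell at 24 h. NIK SMI1 lowered Parp14 and Bst2 at both times, lowered Parp9 and Dtx3l at 6 h, and raised Ifit2 (0.62 ± 0.09) and Samd9l (0.18 ± 0.04) at 24 h. Ifit3 went from 1.28 to 0.358 CPM (-1.73 ± 0.33) and Ifi44 from 0.611 to 0.161 CPM (-1.82 ± 0.48) at 24 h. In the TWEAK samples at 24 h 3 reads equal 0.0642 to 0.132 CPM, so Ifi44 rests there on few reads, which limits its precision. Isg15 and Ifit1, textbook genes of the response, were at or below 0.7 CPM in the group means and did not pass, nor did the more abundant Eif2ak2 and Ifi35. From 6 h to 24 h with vehicle 10 of the 19 rose, beside 15.5% of all tested genes. The stimulus itself was checked on 6 feedback genes of NF-κB, all of which rose with TWEAK and fell with NIK SMI1 at both times (Nfkbia from 29.4 to 172 CPM with TWEAK and 78.3 CPM with both agents at 6 h).

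**Figure D4:**
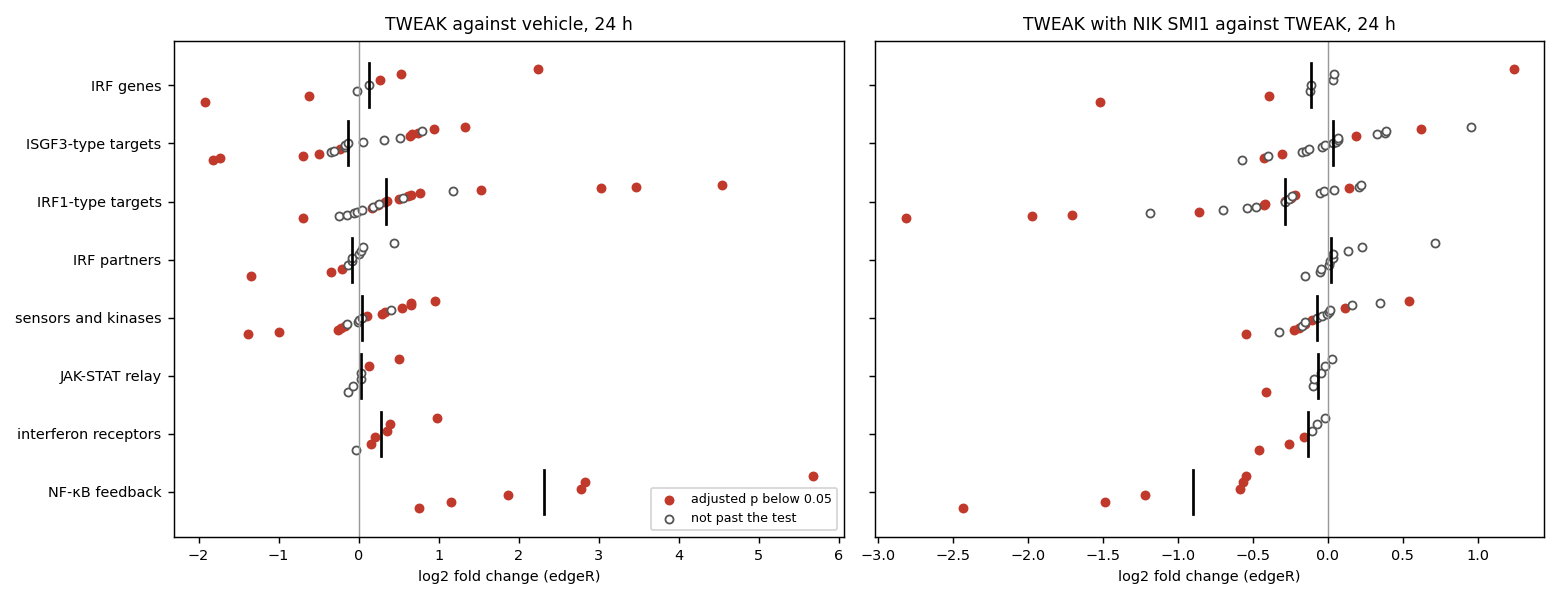
Log2 fold changes from edgeR at 24 h for every tested gene of 8 lists, with TWEAK against vehicle on the left and TWEAK with NIK SMI1 against TWEAK on the right. Points are genes (red, adjusted p below 0.05; white, not past the test), spread vertically within a list for legibility, and black bars are list medians. The 22 IRF1-type targets have a median of 0.34 with TWEAK, whereas the 19 ISGF3-type targets lie on both sides of 0 with a median of -0.13.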

How the data were processed

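RNASeq was performed on 18 RPTEC samples. The HTSeqGenie pipeline with GSNAP was used by the authors to align the single-end reads (mouse, NCBI build 37). For every Entrez gene they deposited the count of uniquely aligned exonic reads, the RPKM and the exonic length. Counts were used for all tests and RPKM for levels between genes. Following the study's filter, the 15521 genes that exceeded 10 reads in 4 or more samples were tested in edgeR 4.0.16 under R 4.3.3, using TMM normalization, 1 fit of 6 groups, the quasi-likelihood test and Benjamini-Hochberg adjustment over all tested genes. Genes called had an adjusted p below 0.05. Standard errors were obtained from the F statistic. Depth was 18040966 to 51956444 counts per sample, and intervals do not cover differences between animals. Alternatives were DESeq2 1.42.0, its size factors in edgeR, no filter, filterByExpr, each time point alone and each sample left out. Scaling by library size alone and leaving out both TWEAK 24 h samples with islet reads were added after the data were seen. The script was tested on simulated data.

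Symbols came from RefSeq by Entrez identifier (31049 of 36528 matched), gene spans and exon overlaps from GENCODE M21 (GRCm38), and promoters of all 8 members from RefSeq (GRCm38.p6), with no conversion of coordinates from build 37. Members and lists were chosen with earlier results of these data known. Named genes were all members, per list up to 4 called genes with the largest change and up to 2 abundant genes not called, further genes where a count of 5 or fewer needed names, and the 3 genes most like each member called with TWEAK at both times. Some genes that this rule names are not reported here. Individual antigen processing genes, Gbp2, Isg15 and Ifit1, Tnpo3, and the Irf2 promoter (in place of that of Irf7, without a match) were chosen after their values were seen.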

Additional observations from a re-analysis of the deposited data

How the results depend on the processing

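Of 63 log2 fold changes (7 members, 9 comparisons), 24 passed the test, and 18 of these passed under every alternative run (25, or 24 where each time point alone gives no value). The other 6 were lost under at least 1 and are given above with their values, and none of the 24 reversed. Of the 39 that did not pass, 4 passed under at least 1 alternative, also given above, and 11 changed sign. The cause was not tested. The number of members called with NIK SMI1 against TWEAK at 6 h was 1 to 2 with 1 sample left out, 1 without sample 1 of TWEAK or sample 2 of TWEAK with NIK SMI1 at 6 h. With both agents against vehicle at 24 h it was 0 to 3, 0 without sample 1 of vehicle and 1 without sample 2 of vehicle or sample 1 or 3 of TWEAK with NIK SMI1 at 24 h.

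Changes of sign, none of them past the test, were as follows. With 1 sample left out, the log2 fold change ranged from -0.206 to 0.090 for Irf7 with TWEAK at 6 h, from -0.040 to 0.005 for Irf3 with TWEAK at 24 h, and from -0.127 to 0.281 for Irf7 with NIK SMI1 against TWEAK at 24 h. It ranged from -0.142 to 0.069 for Irf9 with both agents against vehicle at 24 h, and between the times with vehicle from -0.109 to 0.261 for Irf5 and from -0.044 to 0.073 for Irf9. The difference of the TWEAK effect between the times ranged from -0.020 to 0.057 for Irf1, from -0.025 to 0.037 for Irf2 and from -0.079 to 0.039 for Irf9, and that of the NIK SMI1 effect from -0.186 to 0.024 for Irf9. Without the samples 1 and 3 of TWEAK at 24 h, the value was -0.283 for Irf7 with NIK SMI1 against TWEAK at 24 h, 0.029 for the difference of the TWEAK effect on Irf9 and 0.018 for that of the NIK SMI1 effect on Irf2. With library sizes only, the difference of the TWEAK effect on Irf2 was 0.010, and in DESeq2 Irf9 with both agents against vehicle at 24 h was -0.000.

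No paired analysis was possible because the labels give no replicate numbers. Irf5, Irf7 and Irf8 rest on 7 to 127 reads per sample, which limits the precision of their values.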
